A study of Mus musculus with 12 samples.

Results

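Axon guidance ligands and receptors are the Slits, netrins, semaphorins and ephrins and the cell surface proteins that bind them. They were taken from the tables by gene symbol: protein-coding genes named Slit, Robo, Sema or Ntn with a number, Unc5a to Unc5d, Plxn, Epha, Ephb, Efna or Efnb, together with Nrp1, Nrp2 and Dcc. This gave 69 of 32692 listed genes (17637 of them protein-coding), 35 ligands and 34 receptors. The rule used no expression value, although it was chosen with earlier results of these data known. The series measured RNA in mouse kidney to find transcripts that differ over the neonatal period. The 2 groups were kidneys labelled wild type (WT) and untreated at day 0 and at day 8, and the labels give no strain, sex, litter or batch. Of 12 samples, 6 per age, 11 libraries were used, 6 at day 0 and 5 at day 8, and 1 day 8 sample was not analysed here. The labels do not say that the libraries came from separate animals, so that p-values cover the spread among these libraries and nothing wider.

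Guidance cues steer growing cells by attraction or repulsion, and the same pairs of cue and receptor act outside the nervous system in vessels, epithelia and stroma. Slits signal through Robo receptors, netrins through Dcc and Unc5 receptors, semaphorins through plexins with or without a neuropilin, and ephrins, which are held in the membrane, through Eph receptor kinases on a neighbouring cell. In the mouse embryo, Slit2 and Robo2 limit where the ureteric bud forms, and Sema3a and Sema3c have been linked to branching of the bud and to the vessels of the kidney.

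Libraries held 18222170 to 24428652 estimated counts, of which the 69 genes took 0.542% to 0.578% at day 0 and 0.501% to 0.544% at day 8. Every pair of same-age libraries differed by more than sampling noise, so none was counted as a duplicate. Markers of kidney tissue were present in every library. A liver marker list summed to a CPM (counts scaled to the same library total) of 188 to 279 in day 0 libraries 1 to 3 and of 13.1 to 32.3 in day 0 libraries 4 to 6. The summed TPM (levels corrected for transcript length) of the guidance genes also separated these libraries, at 1225 to 1287 in the first 3 and 1456 to 1495 in the others. A fat list was higher in day 8 libraries 3 to 5, at 89.8 to 124 CPM, than in day 8 libraries 1 and 2, at 54.8 to 63.0 CPM. Where leaving out these libraries together ended an edgeR call, the value is given with the gene.

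Most guidance genes differed between the ages, and in the count test more fell than rose. Of 69 genes, 65 had enough counts to be tested, and edgeR's quasi-likelihood test (adjusted p under 0.05) called 51 of them (78.5%), 19 higher and 32 lower at day 8. Over all 18763 tested genes, 57.6% were called, 27.5% higher and 30.1% lower. Only Robo3 was called higher by 2-fold or more, and 9 guidance genes lower by as much, against 4.83% and 5.81% of all tested genes. For 45 of the 65, the CPM ranges at day 0 and day 8 stayed apart, 17 above and 28 below, against 40.5% of all tested genes (19.1% above and 21.4% below). The median log2 fold change, day 8 minus day 0, was -0.17 over the 65 genes and -0.01 over all tested genes. Among 34 tested ligands, 11 were higher and 18 lower, and among 31 tested receptors, 8 were higher and 14 lower. In bulk RNA, fewer cells of a type and less RNA per cell cannot be told apart. With the deposited TPM values in place of counts, limma called 22 higher and 19 lower of 59, and the median of all genes was 0.13. Without day 0 libraries 1 to 3, TPM gave 15 higher and 20 lower, with a median of all genes of 0.03.

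The 4 genes that were not tested had few reads. Ntn5, a netrin, had 12 counts over the day 0 libraries and 4 over the day 8 libraries. Epha10, a receptor that lacks kinase activity, had 9 and 2 counts, Epha5 had 36 and 3, and Epha6 had 8 and 7. The plot of fold changes shows the other 65 genes by family.

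**Figure D1:**
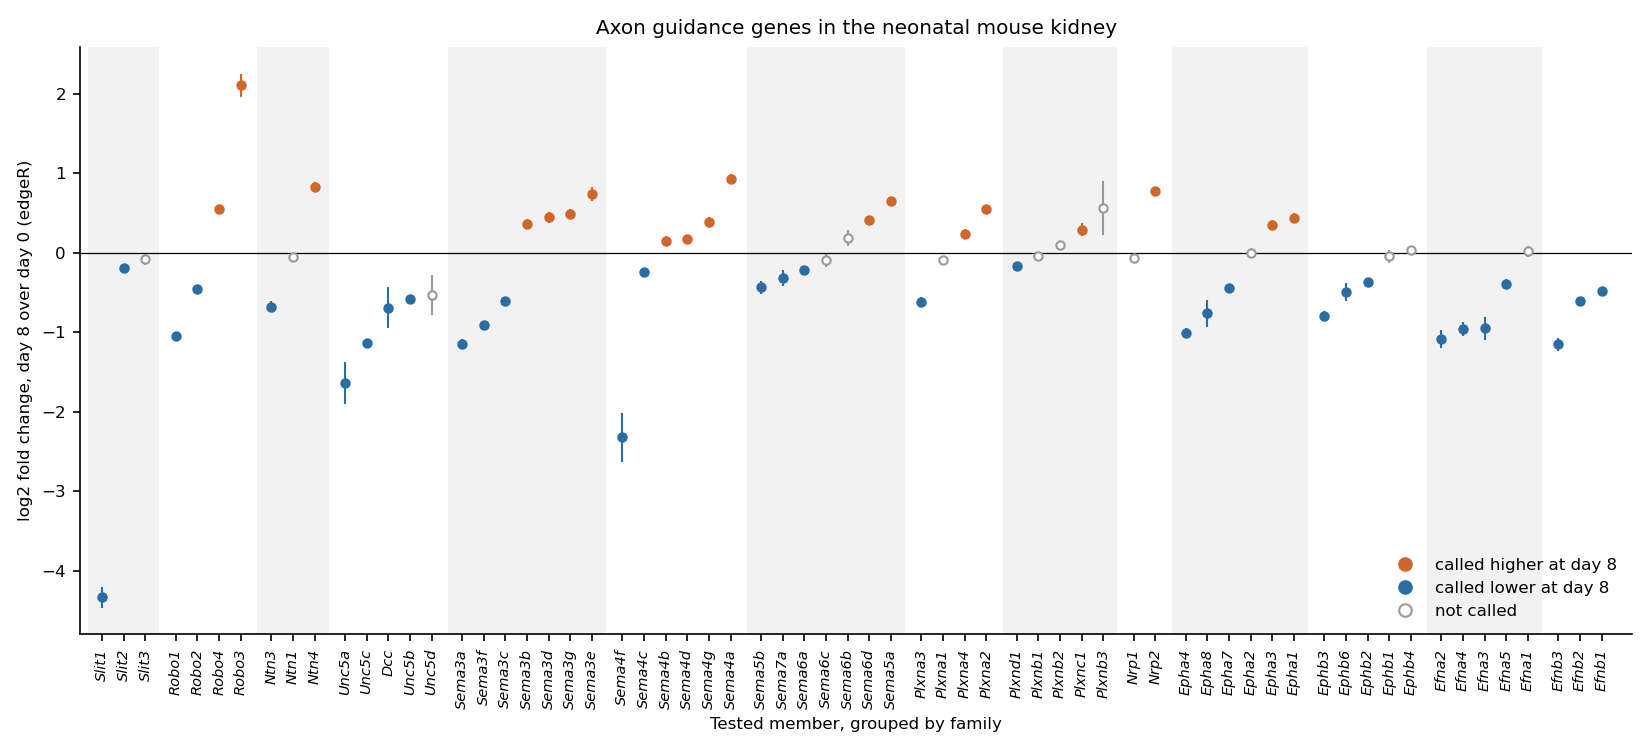
Log2 fold change of CPM, day 8 minus day 0, for each of the 65 tested guidance genes, grouped by family, with bars of 1 SE from the edgeR fit of 6 day 0 and 5 day 8 libraries. Slit1 at -4.34 and Robo3 at 2.11 are the lowest and highest, and all ephrins but Efna1 lie below 0.

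Promoter windows of 250 bases before the RefSeq transcription start (GRCm38.p6) were held by the table for 59 of the 69 genes, in 75 windows. The letters GGGCGG, the GC box, were found on either strand in 70.7% of these windows, against 32.7% of all 32851 windows in the table and 55.2% of the 14023 windows of tested protein-coding genes. The letters TATAAA were in 2.67% of them against 6.75% of the windows of tested protein-coding genes, and CCAAT in 26.7% against 34.7%. The guidance windows had a median GC content of 64.4% against 52.4% over all windows, and the shares were not adjusted for it. Windows of Robo3, which rose, and of Robo1, Unc5c and Efna2, which fell by 2-fold or more, are shown as examples of opposite directions. The falling genes shown are not those that fell the most, and Slit1, which fell the most, had no window in the table. Each window is written 5′ to 3′ on the gene's strand, with each GC box on either strand in capitals.
Robo3 chr9:37433176-37433425 (minus strand): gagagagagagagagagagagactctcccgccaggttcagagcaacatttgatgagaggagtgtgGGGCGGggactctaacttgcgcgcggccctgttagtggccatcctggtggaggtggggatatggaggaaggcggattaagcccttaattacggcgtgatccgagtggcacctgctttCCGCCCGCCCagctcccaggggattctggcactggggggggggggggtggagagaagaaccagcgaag
Robo1 chr16:72662899-72663148 (plus strand): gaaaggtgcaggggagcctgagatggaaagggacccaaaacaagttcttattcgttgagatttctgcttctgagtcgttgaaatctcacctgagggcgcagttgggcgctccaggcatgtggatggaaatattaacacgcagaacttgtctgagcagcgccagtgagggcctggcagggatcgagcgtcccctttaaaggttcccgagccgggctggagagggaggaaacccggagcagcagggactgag
Unc5c chr3:141465314-141465563 (plus strand): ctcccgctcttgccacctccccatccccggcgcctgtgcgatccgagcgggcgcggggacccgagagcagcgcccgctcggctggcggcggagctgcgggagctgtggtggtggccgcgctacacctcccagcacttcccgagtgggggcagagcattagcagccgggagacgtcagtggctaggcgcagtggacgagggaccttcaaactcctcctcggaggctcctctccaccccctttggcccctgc
Efna2 chr10:80179232-80179481 (plus strand): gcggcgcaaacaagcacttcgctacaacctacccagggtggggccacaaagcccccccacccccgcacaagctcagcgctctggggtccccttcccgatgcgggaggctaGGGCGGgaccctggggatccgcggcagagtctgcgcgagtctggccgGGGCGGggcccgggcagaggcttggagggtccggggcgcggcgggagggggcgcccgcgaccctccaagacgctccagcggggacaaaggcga
The Robo3 window holds 3 GC boxes, 2 of them overlapping on the other strand, and the Efna2 window holds 2. The Robo1 and Unc5c windows hold none, and none of the 4 windows holds TATAAA or CCAAT. The rising Robo3 and the falling Efna2 both have GC boxes. A match is only a description of these letters, and the RefSeq starts of Robo1, Robo3 and Unc5c lie inside the GENCODE gene.

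Slit ligands and their Robo receptors were the family with the widest spread of changes. Slit1 fell by 4.34 on the log2 scale, Robo1 and Robo2 fell, and Robo3 and Robo4 rose. Slit1, a secreted repellent best known from the brain, stood at 17.1 to 19.5 CPM (median 18.1) at day 0 and at 0.687, 0.835, 1.10, 0.667 and 1.19 CPM in the 5 day 8 libraries. Every day 8 library was far below every day 0 library. The mean went from 18.2 ± 0.997 CPM (SD, n = 6) to 0.894 ± 0.237 CPM (SD, n = 5), which is 20.2-fold lower (edgeR adjusted p = 5.34e-13). A list of 7 neuron markers fell alongside, from 8.45 to 12.8 CPM in sum at day 0 to 1.63 to 2.21 CPM at day 8, most of it Elavl4, an RNA-binding protein of neurons, which went from 6.73 to 0.160 CPM. Its part in the change of Slit1 was not tested.

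Slit2, the Slit that restricts ureteric budding in the mouse, changed little. Its level was 187 to 228 CPM (median 216) at day 0 and 184, 174, 189, 187 and 186 CPM at day 8, and the ranges overlapped. The difference of -0.20 ± 0.05 (SE) on the log2 scale passed the test (edgeR adjusted p = 0.00485) but not with TPM values (limma adjusted p = 0.657). Slit3, a Slit of vessels and mesenchyme, was not called, at 67.8 ± 4.06 and 64.0 ± 8.47 CPM (SD, n = 6 and 5). By TPM, which corrects for transcript length, Slit2 made up 67.1% of the Slit RNA at day 0 and 68.6% at day 8, Slit3 26.6% and 30.9%, and Slit1 6.29% and 0.501%.

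The 4 Robo receptors split into a falling and a rising pair. Robo1, on chromosome 16 from 72308306 to 73046095 (plus strand, GRCm38), had 144 to 165 CPM (median 161) at day 0 and 81.2, 73.4, 76.7, 78.2 and 71.6 CPM at day 8. Robo2, the receptor of Slit2 in ureteric budding, had 150.4 to 169 CPM (median 156) at day 0 and 119, 113, 104, 112 and 125 CPM at day 8. Neither gene's ranges overlapped. Robo1 fell by 1.05 on the log2 scale (SE 0.05, edgeR adjusted p = 5.24e-11) and Robo2 fell by 0.46 (SE 0.05, edgeR adjusted p = 5.26e-07).

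Robo3, the gene with 3 GC boxes in its promoter window and a divergent receptor known for letting commissural axons cross the midline, lies on chromosome 9 from 37415669 to 37433246 (minus strand), next to Robo4 at 37401897 to 37415115 (plus strand). It counted 1.33 to 1.89 CPM (median 1.48) at day 0 and 5.50, 5.16, 7.31, 6.58 and 7.91 CPM at day 8. All day 8 libraries were higher, although per length its 2.09 ± 0.513 TPM (SD, n = 5) at day 8 was the lowest of the Robo genes. The change was 4.30-fold (log2 2.11 ± 0.15 SE, edgeR adjusted p = 7.74e-09). Robo4, the Robo of endothelium, went from 34.3 to 40.6 CPM (median 36.4) to 49.9, 59.9, 52.4, 54.2 and 53.1 CPM, with no overlap (log2 0.55 ± 0.06 SE, edgeR adjusted p = 9.32e-07). A list of 6 endothelial markers rose with it, all 6 called higher, from 625 to 707 CPM in sum at day 0 to 838 to 932 CPM at day 8, and its part in the rise of Robo4 was not tested. In TPM, Robo4 went from 13.1% to 24.9% of the Robo RNA and Robo3 from 0.465% to 2.63%, while Robo1 went from 33.6% to 21.7%. Robo2 remained the most abundant, at 48.9 ± 4.89 TPM (SD, n = 6) and 39.9 ± 4.73 TPM (SD, n = 5).

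**Figure D2:**
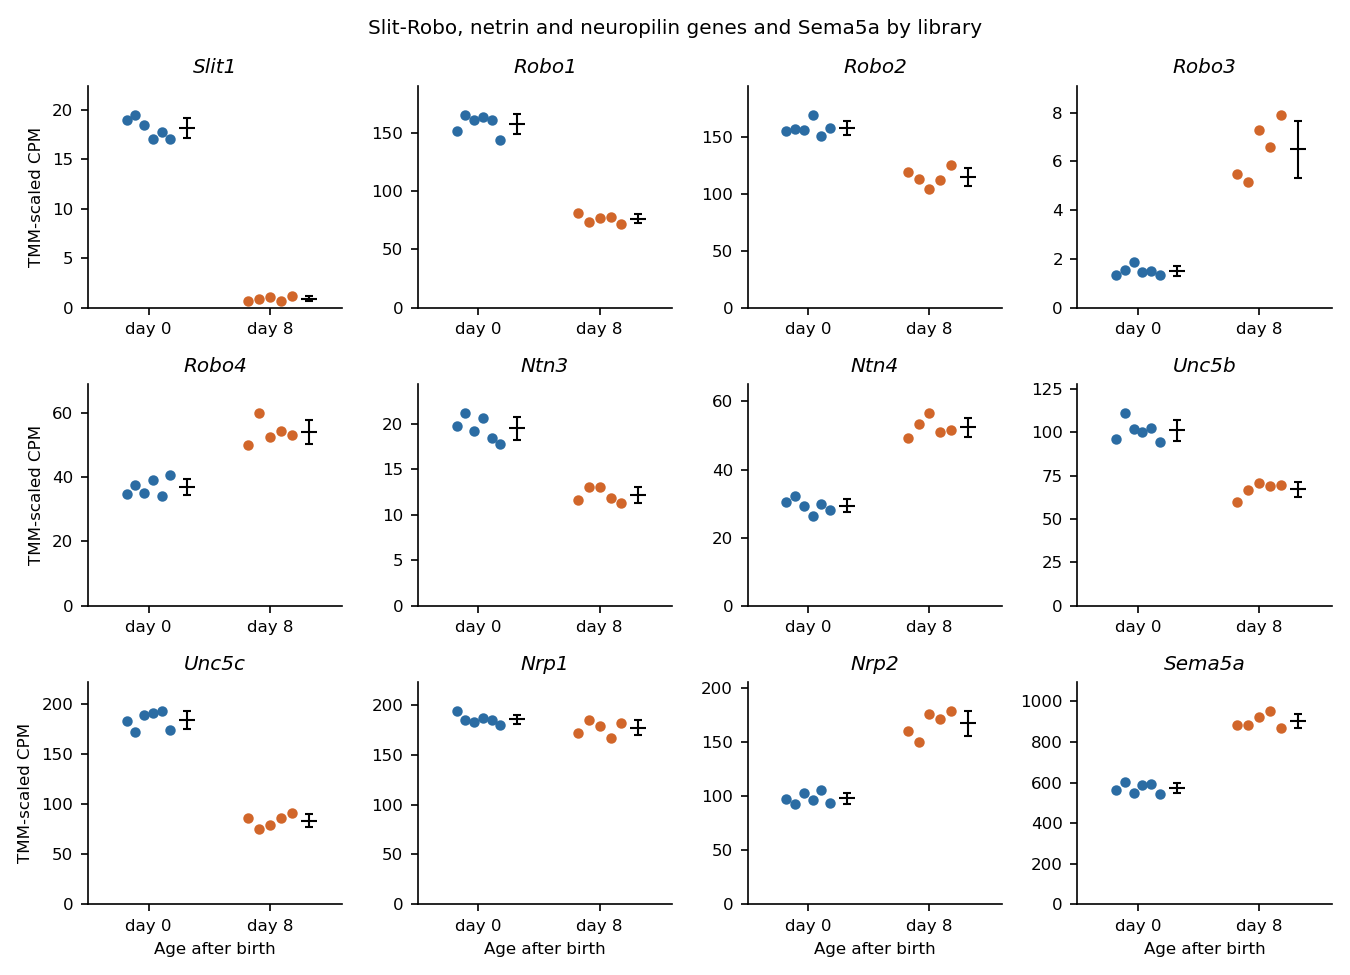
TMM-scaled CPM in every library at day 0 (n = 6) and day 8 (n = 5) for Slit1, the 4 Robo genes, Ntn3, Ntn4, Unc5b, Unc5c, both neuropilins and Sema5a, on a linear axis per gene. Points are libraries and bars are the mean ± SD. Slit1, Robo1 and Unc5c lie lower and Robo3, Ntn4, Nrp2 and Sema5a higher in every day 8 library, while Nrp1 overlaps.

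Netrins are laminin-like secreted proteins. Of 3 tested, 1 fell, 1 rose and 1 was not called, near the shares of all tested genes (30.1% lower and 27.5% higher). Ntn1, the classical ligand of Dcc and Unc5 receptors and the netrin with the highest TPM, had 112 to 122 CPM (median 118) at day 0 and 106, 117, 109, 123 and 109 CPM at day 8. The ranges overlapped and the gene was not called (log2 -0.05 ± 0.04 SE, edgeR adjusted p = 0.341). Ntn4, a netrin of basement membranes that binds laminin, had 26.4 to 32.3 CPM (median 29.6) at day 0 and 49.3, 53.4, 56.6, 50.9 and 51.7 CPM at day 8. Ntn3 had 17.8 to 21.2 CPM (median 19.5) and then 11.6, 13.1, 13.1, 11.9 and 11.3 CPM. Neither Ntn3 nor Ntn4 overlapped between the ages. Ntn4 rose 1.78-fold (edgeR adjusted p = 4.66e-09) and Ntn3 fell by 0.68 on the log2 scale (edgeR adjusted p = 3.94e-07). As a share of netrin TPM, Ntn4 went from 23.9% to 38.8%, Ntn3 from 14.3% to 7.84% and Ntn1 from 61.6% to 53.3%.

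Netrin receptors were lower at day 8: 4 of 5 (80%) fell and none rose, against 30.1% lower and 27.5% higher of all tested genes. Unc5c, a receptor that mediates repulsion, had 171 to 192 CPM (median 186) at day 0 and 85.7, 75.1, 78.5, 86.2 and 90.6 CPM at day 8. Unc5b, the Unc5 receptor known from vessels, had 94.3 to 111 CPM (median 101) and then 60.1, 66.5, 70.6, 68.9 and 69.7 CPM. Both were lower in every day 8 library. Unc5c fell by 1.14 (SE 0.05, edgeR adjusted p = 6.88e-11) and Unc5b by 0.59 on the log2 scale (SE 0.05, edgeR adjusted p = 9.1e-08), so that Unc5b took 42.8% of the TPM of this family at day 0 and 52.6% at day 8, and Unc5c 55.0% and 45.7%. Endothelial markers rose over the same interval, as given above, and their part in the change of Unc5b was not tested.

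The other netrin receptors were rare. Unc5a went from 1.35 ± 0.371 CPM (SD, n = 6) to 0.425 ± 0.126 CPM (SD, n = 5) with no overlap and was called lower (log2 -1.64 ± 0.26 SE, edgeR adjusted p = 6.3e-05). Dcc, the attractive netrin receptor, stood at 2.68 ± 0.875 and 1.65 ± 0.539 CPM with overlapping ranges. Its call (log2 -0.69 ± 0.26 SE, edgeR adjusted p = 0.0303) was lost without day 0 library 1, 4 or 5 or day 8 library 1, 2, 3 or 5, where the edgeR adjusted p lay between 0.0587 and 0.07996. It was also lost without day 0 libraries 1 to 3 together (edgeR adjusted p = 0.135) and with limma-voom (adjusted p = 0.0601). Unc5d was not called at 1.25 ± 0.450 and 0.858 ± 0.0820 CPM, but was called lower without day 0 library 1 (edgeR adjusted p = 0.0194). Summed over Dcc and the Unc5 genes, the level went from 54.9 ± 4.40 TPM (49.1 to 59.96) to 33.5 ± 4.08 TPM (27.1 to 36.6), with no overlap.

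Class 3 semaphorins, the secreted members of the family, divided completely: all 7 were called, none overlapped between the ages, and 3 fell while 4 rose. Of all tested genes, 57.6% were called and 40.5% had ranges that stayed apart. The 3 that fell were Sema3a, Sema3c and Sema3f. Sema3a, which signals through Nrp1 and A plexins, had 72.5 to 78.8 CPM (median 74.3) at day 0 and 39.6, 32.0, 31.5, 34.2 and 32.8 CPM at day 8 (log2 -1.14 ± 0.06 SE, edgeR adjusted p = 2.45e-10). Sema3f, a ligand that prefers Nrp2, had 71.2 to 75.0 CPM (median 72.0) and then 36.0, 37.3, 38.6, 41.4 and 40.2 CPM (log2 -0.91 ± 0.04 SE, edgeR adjusted p = 1.37e-10). Sema3c, the class 3 member with the highest TPM at both ages, had 236 to 269 CPM (median 254) and then 171, 178, 162, 165 and 150.3 CPM (log2 -0.61 ± 0.05 SE, edgeR adjusted p = 3.36e-08). In each of the 3, every day 8 library lay below every day 0 library. Nephron progenitor markers (5 of 6 lower, summed CPM 102 to 112 at day 0 and 16.7 to 29.0 at day 8) and ureteric tip markers (6 of 6 lower, 311 to 349 and 58.1 to 71.7) fell over the same interval, and their part in these changes was not tested.

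Sema3b, Sema3d, Sema3e and Sema3g rose. Sema3e, which binds Plxnd1 without a neuropilin, had 10.5 to 13.6 CPM (median 12.1) at day 0 and 21.9, 20.4, 20.0, 16.4 and 20.9 CPM at day 8 (log2 0.74 ± 0.09 SE, edgeR adjusted p = 2.4e-06). Sema3g, a semaphorin of arterial endothelium, had 75.6 to 94.1 CPM (median 82.6) and then 113, 125, 123, 111 and 112 CPM (log2 0.49 ± 0.05 SE, edgeR adjusted p = 1.39e-06). The 4 rising genes were above their day 0 range in all 5 day 8 libraries. Sema3d went from 58.3 ± 5.60 to 79.4 ± 6.04 CPM and Sema3b from 49.5 ± 1.20 to 63.9 ± 6.59 CPM (SD, n = 6 and 5), with log2 fold changes of 0.45 and 0.37. The sum over the 7 genes overlapped between the ages, at 186 ± 16.3 TPM (170 to 205) at day 0 and 179 ± 17.1 TPM (157 to 199) at day 8. Sema3a, Sema3c and Sema3f together with the 4 rising genes kept their calls and directions under every alternative tried.

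**Figure D3:**
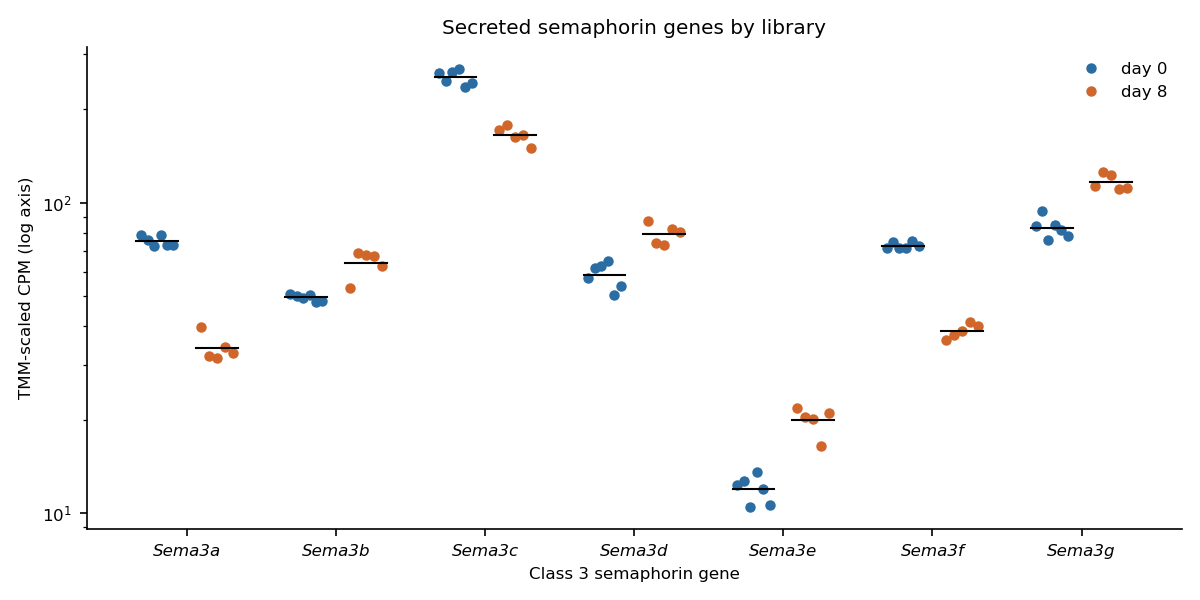
TMM-scaled CPM of the 7 class 3 semaphorins in each day 0 (n = 6) and day 8 (n = 5) library on a log axis. Points are libraries, and heights compare ages within a gene, not genes with each other. Sema3a, Sema3c and Sema3f are lower and Sema3b, Sema3d, Sema3e and Sema3g higher in every day 8 library.

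The transmembrane semaphorins of class 4 divided unequally: 4 of 6 (66.7%) rose and 2 (33.3%) fell, against 27.5% and 30.1% of all tested genes. Sema4a, known from immune cells and vessels, changed the most among those that rose, from 33.0 to 42.4 CPM (median 33.996) at day 0 to 67.1, 69.0, 68.0, 73.7 and 64.4 CPM at day 8, with no overlap (1.90-fold, edgeR adjusted p = 1.2e-08). Sema4g rose from 53.8 ± 3.78 to 70.0 ± 7.94 CPM (SD, n = 6 and 5). Sema4d, a ligand of Plxnb1, and Sema4b rose by 0.17 and 0.15 on the log2 scale with overlapping ranges. The edgeR adjusted p was 0.00661 for Sema4d, and 0.0716 without day 0 libraries 1 to 3. For Sema4b it was 0.0390, and between 0.0576 and 0.124 without day 0 library 1, 3 or 5 or day 8 library 2 or 3. The Sema4b call was also lost without day 8 libraries 3 to 5 (edgeR adjusted p = 0.294) and without day 0 libraries 1 to 3 (edgeR adjusted p = 0.0751). With library size alone as the scaling, the edgeR adjusted p was 0.219 for Sema4b and 0.104 for Sema4d.

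Sema4c, a ligand of Plxnb2, fell slightly, from 46.0 to 50.2 CPM (median 47.9) to 39.9, 41.5, 41.4, 42.6 and 38.5 CPM. The ranges did not overlap (log2 -0.24 ± 0.04 SE, edgeR adjusted p = 0.00028), but the sign turned with TPM values (log2 0.0091). After TMM scaling of TPM the log2 difference was -0.1235 and not called (limma adjusted p = 0.165). Sema4f fell 5.01-fold from a low level, 1.19 ± 0.255 CPM to 0.233 ± 0.122 CPM (SD, n = 6 and 5, edgeR adjusted p = 1.13e-05). Summed class 4 TPM was higher at day 8 without overlap, 94.7 to 131 against 146 to 185, with Sema4a going from 23.7% to 34.7% of it.

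Among classes 5 to 7, 2 of 7 rose, 3 fell and 2 were not called in the count test. These shares, 28.6% higher and 42.9% lower, compare with 27.5% and 30.1% of all tested genes. With deposited TPM, limma called 3 higher and 0 lower of the 7 (2 lower after TMM scaling of TPM), and the median log2 fold change turned from -0.09 to 0.21. Sema5a, a transmembrane semaphorin with thrombospondin repeats, stood out by its level as well as its change. It had 545 to 601 CPM (median 577) at day 0 and 883, 883, 923, 951 and 870.0 CPM at day 8, with no overlap (log2 0.65 ± 0.04 SE, edgeR adjusted p = 4.94e-09). Per length, it rose from 67.9 ± 7.31 TPM to 121 ± 13.1 TPM (SD, n = 6 and 5), close to Plxnb2, which had the highest mean TPM of the 69 genes at both ages. Sema6d, a ligand of Plxna1, rose from 59.1 ± 3.59 to 78.8 ± 4.81 CPM. Sema5b fell from 8.31 to 10.1 CPM (median 8.73) to 6.48, 6.88, 6.62, 6.87 and 6.37 CPM, all below the day 0 range (edgeR adjusted p = 0.000257, limma on TPM adjusted p = 0.0552).

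Sema6a, which binds Plxna2 and Plxna4, fell from 132 ± 6.40 to 114 ± 2.33 CPM (SD, n = 6 and 5, log2 -0.21, edgeR adjusted p = 0.00022). With TPM its log2 difference was -0.0620 and the call was lost (limma adjusted p = 0.630). Sema7a, anchored to the membrane by a lipid and a ligand of Plxnc1, was called lower with overlapping ranges (log2 -0.32, edgeR adjusted p = 0.0132). That call was lost without day 8 libraries 3 to 5 (edgeR adjusted p = 0.328), without day 0 libraries 1 to 3 (edgeR adjusted p = 0.0864) and with TPM (limma adjusted p = 0.559). Sema6b and Sema6c were not called, at log2 0.19 and -0.09, although Sema6b passed as higher with TPM (limma adjusted p = 0.0459). Sema5a went from 51.9% to 63.7% of the TPM of these 7 genes and Sema6a from 24.2% to 15.99%.

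Of 9 plexins, the signalling receptors of the semaphorins, 3 rose, 2 fell and 4 were not called, and none reached 2-fold. The share called, 55.6%, was near the 57.6% of all tested genes, while 90% of the 20 semaphorins were called. That contrast with the ligands was not tested. With TPM, limma called 4 higher and 1 lower of 8, and 2 higher and 1 lower after TMM scaling of TPM. Plxna2 had 64.2 to 79.0 CPM (median 74.6) at day 0 and 106, 105, 106, 110.3 and 112 CPM at day 8. Plxna3 had 22.8 to 28.8 CPM (median 27.2) and then 16.9, 17.3, 17.0, 16.7 and 19.3 CPM. Neither overlapped between the ages. Plxna2 rose by 0.55 (SE 0.05, edgeR adjusted p = 7.21e-08) and Plxna3 fell by 0.62 on the log2 scale (SE 0.07, edgeR adjusted p = 9.1e-07). Plxna1, the A plexin with the highest TPM, was not called, with 199 to 224 CPM (median 206) and 195, 197, 187, 214 and 187 CPM. It was called lower with library size alone (edgeR adjusted p = 0.00722) and without day 8 library 4 (edgeR adjusted p = 0.0222). It shares 10.7% of its exon bases with an antisense gene, so that its level is less certain where counting ignored the strand. Plxna4 rose by 0.23 on the log2 scale, from 37.1 ± 3.09 to 43.5 ± 2.09 CPM. Without day 8 libraries 3 to 5 its call was lost (edgeR adjusted p = 0.0728).

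Plxnb2, a receptor of class 4 semaphorins, had 479 to 514 CPM (median 486) at day 0 and 485, 537, 545, 551 and 510.4 CPM at day 8. The ranges overlapped and it was not called (edgeR adjusted p = 0.0641), although it passed without day 0 library 2 (0.0356), day 8 library 1 (0.0129) or day 8 library 5 (0.0388) in the same edgeR test. It also passed as higher with RLE scaling (0.0432), the CPM filter (0.0429), DESeq2 (0.0265), limma-voom (0.0451) and limma on TPM (0.0302), as adjusted p. Plxnd1, an endothelial plexin that binds Sema3e, was called lower with overlapping ranges, 355 to 417 CPM (median 379) and 333, 337, 343, 369 and 308 CPM (log2 -0.17 ± 0.05 SE, edgeR adjusted p = 0.0104). Its call was lost without day 0 libraries 1 to 3 (edgeR adjusted p = 0.0611), and with TPM values its sign turned (log2 0.0730). After TMM scaling of TPM the log2 difference was -0.0642 and not called (limma adjusted p = 0.227). Plxnc1, the receptor of Sema7a, rose from 9.48 to 11.3 CPM (median 10.9) to 13.01, 14.7, 11.6, 11.5 and 14.1 CPM (log2 0.29 ± 0.08 SE, edgeR adjusted p = 0.00772). Plxnb1, the receptor of Sema4d, and Plxnb3, which was under 1 CPM, were not called, although Plxnb3 passed as higher without day 0 library 3 (edgeR adjusted p = 0.0279).

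Neuropilins, the coreceptors of class 3 semaphorins that also bind vascular endothelial growth factors, differed from each other. Nrp2 had 92.1 to 105 CPM (median 96.5) at day 0 and 160.2, 150.2, 176, 171 and 178 CPM at day 8, with every day 8 library higher. Nrp1 had 181 to 194 CPM (median 185) and then 172, 186, 179, 167 and 182 CPM, with overlap. Nrp2 rose by 0.77 (SE 0.05, edgeR adjusted p = 3.84e-09), and Nrp1 was not called (log2 -0.07 ± 0.04 SE, edgeR adjusted p = 0.117), although with library size alone it passed as lower (edgeR adjusted p = 0.00521). Nrp2 went from 22.7% to 34.4% of neuropilin TPM, with library ranges of 21.9% to 24.1% and 31.1% to 36.1%. The endothelial list given with Robo4 rose over the same interval, and its part in the rise of Nrp2 was not tested.

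Ephrins fell as a family: 7 of 8 (87.5%) were called lower, all 7 without overlap between the ages. Over all tested genes, 30.1% were called lower and 21.4% lay below without overlap. The median log2 fold change of the ephrins was -0.78, against -0.01 for all tested genes. Among the ephrin-B ligands, which span the membrane, Efnb2, the ligand of arterial endothelium, had 195 to 238 CPM (median 212) at day 0 and 135, 146, 141, 151 and 130.0 CPM at day 8. Efnb1 had 118 to 139.8 CPM (median 129.8) and then 88.6, 95.4, 95.2, 95.0 and 86.3 CPM. Efnb3 had 16.7 to 20.4 CPM (median 17.96) and then 6.78, 8.84, 8.49, 8.87 and 8.21 CPM. Each gene's day 8 libraries all lay below its day 0 libraries. Efnb3 fell by 1.16 (edgeR adjusted p = 7.99e-09), Efnb2 by 0.61 (edgeR adjusted p = 1.11e-07) and Efnb1 by 0.48 on the log2 scale (edgeR adjusted p = 7.22e-07). Summed ephrin-B TPM was 105 to 123 at day 0 and 79.1 to 96.4 at day 8, while the endothelial list rose. The nephron progenitor and ureteric tip lists fell over the same interval, as given with the class 3 semaphorins, and the part of these lists in the fall of the ephrins was not tested.

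Ephrin-A ligands are attached to the membrane by a lipid anchor. Efna2 had 10.01 to 13.3 CPM (median 10.4) at day 0 and 5.41, 6.04, 5.52, 4.96 and 3.95 CPM at day 8, and Efna5 had 40.7 to 52.1 CPM (median 45.8) and then 34.1, 36.2, 36.8, 35.5 and 33.8 CPM. Both were lower in all day 8 libraries, Efna2 by 2.12-fold (edgeR adjusted p = 8.28e-07) and Efna5 by 1.31-fold (edgeR adjusted p = 4.55e-05). Efna4 went from 15.6 ± 1.52 to 8.01 ± 0.914 CPM and Efna3 from 3.77 ± 0.430 to 1.94 ± 0.326 CPM (SD, n = 6 and 5). Efna3 shares 14.1% and Efna4 10.5% of its exon bases with a gene on the opposite strand, and use of the strand in counting was not stated, so these levels are less certain. Efna1, the main partner of Epha2, was the exception, with 25.1 to 32.7 CPM (median 29.4) and 29.9, 31.8, 32.1, 28.8 and 25.8 CPM (log2 0.02 ± 0.07 SE, edgeR adjusted p = 0.848). It went from 40.0% to 52.2% of ephrin-A TPM. With TPM values in place of counts, 6 of the 8 ephrins were called lower by limma, Efna5 being lost (adjusted p = 0.0678), and 5 without day 0 libraries 1 to 3. After TMM scaling of TPM, the same 7 as in the count test were called lower.

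**Figure D4:**
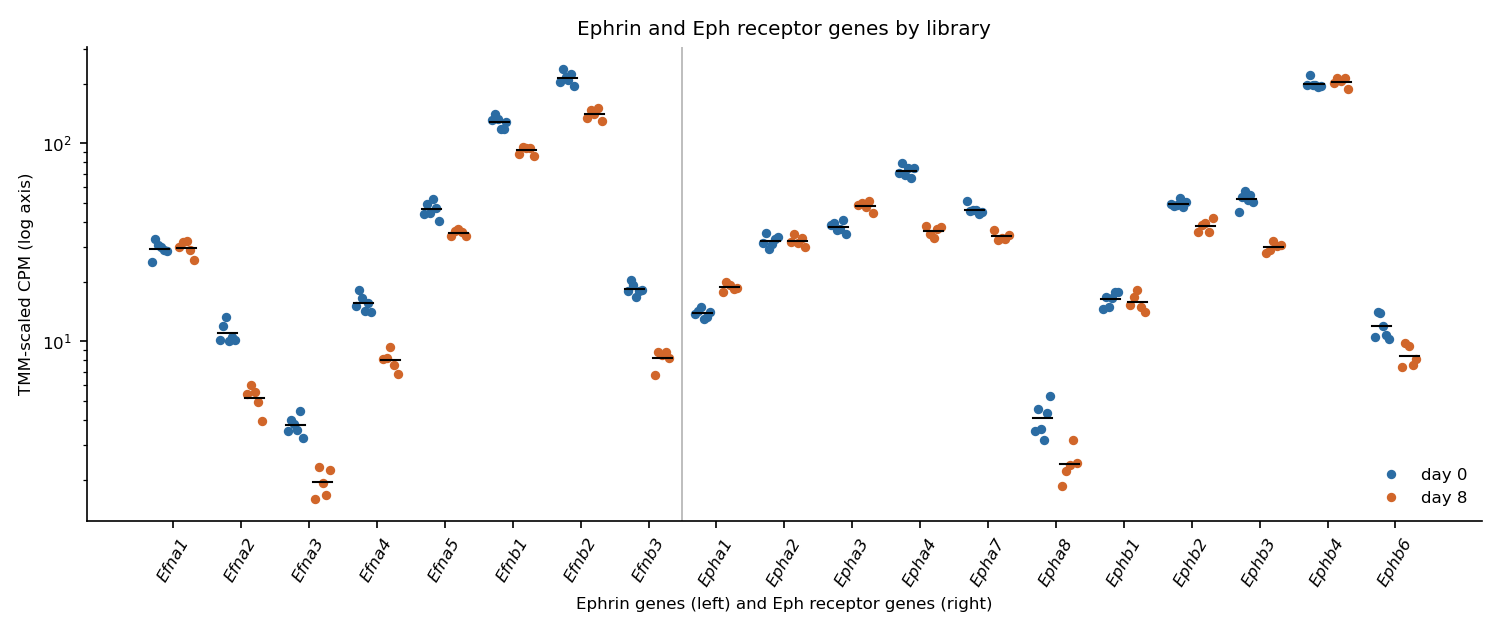
TMM-scaled CPM of ephrins and tested Eph receptors in each day 0 (n = 6) and day 8 (n = 5) library on a log axis. Points are libraries and black lines are means, and heights compare ages within a gene only. Of 8 ephrins, all but Efna1 are lower at day 8, while Epha1 and Epha3 are higher among the receptors.

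Of 11 tested Eph receptors, 6 fell, 2 rose and 3 were not called in the count test, with a median log2 fold change of -0.37. That is 54.5% lower and 18.2% higher, against 30.1% and 27.5% of all tested genes. With deposited TPM, limma called 3 lower and 3 higher of 10, with a median of -0.05, and after TMM scaling of TPM 5 lower and 2 higher. Among A receptors, Epha4, which binds ephrins of both classes, had 66.7 to 79.0 CPM (median 72.8) at day 0 and 38.0, 34.8, 33.2, 37.0 and 37.9 CPM at day 8. Epha1 had 12.9 to 14.9 CPM (median 13.8) and then 17.7, 19.9, 19.2, 18.3 and 18.5 CPM. Neither overlapped, in opposite directions. Epha4 fell 2.01-fold (log2 SE 0.05, edgeR adjusted p = 4.94e-10), and Epha1 rose by 0.44 on the log2 scale (SE 0.06, edgeR adjusted p = 9.96e-06). Epha3 rose from 37.8 ± 2.21 to 48.3 ± 2.55 CPM, and Epha7 fell from 46.2 ± 2.47 to 33.9 ± 1.54 CPM (SD, n = 6 and 5). Epha8 fell from 4.08 ± 0.785 to 2.40 ± 0.482 CPM. Epha2 was the same at both ages within its spread, 32.2 ± 2.06 and 32.2 ± 1.89 CPM. By TPM, Epha4 had the largest share of this family at day 0, 28.8%, and Epha3 at day 8, 25.8%, whereas the summed deposited TPM overlapped (46.8 to 55.7 and 45.7 to 54.6).

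Among B receptors, 3 of 5 (60%) fell and none rose in the count test, against 30.1% lower and 27.5% higher of all tested genes. With TPM, limma called only Ephb3 lower and Ephb4 higher (adjusted p = 0.0476), while Ephb2 (0.114) and Ephb6 (0.0748) lost their calls. After TMM scaling of TPM, the same 3 as in the count test were called lower and none higher. Ephb3, a receptor of epithelia, had 45.0 to 57.5 CPM (median 52.7) at day 0 and 27.8, 29.0, 32.2, 30.2 and 30.7 CPM at day 8 (log2 -0.80 ± 0.06 SE, edgeR adjusted p = 2.52e-08). Ephb2 had 47.6 to 52.7 CPM (median 49.1) and then 35.8, 38.8, 39.6, 35.7 and 41.7 CPM (log2 -0.37 ± 0.05 SE, edgeR adjusted p = 1.28e-05). Both were below their day 0 range in all day 8 libraries. Ephb6, which lacks kinase activity, fell from 11.9 ± 1.73 to 8.46 ± 1.08 CPM. Ephb4, the receptor of venous endothelium and partner of Efnb2, had 193 to 221 CPM (median 196) and 200.4, 213, 207, 213 and 187 CPM. It was not called (log2 0.03 ± 0.05 SE, edgeR adjusted p = 0.589), and neither was Ephb1. Ephb4 went from 59.5% to 68.4% of Ephb TPM.

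Per length, 5 genes led the set at day 0: Plxnb2 at 109 ± 7.30 TPM, Plxnd1 at 75.0 ± 7.49, Sema5a at 67.9 ± 7.31, Nrp1 at 63.1 ± 4.57 and Sema3c at 62.1 ± 5.18 TPM (SD, n = 6). Of these, Plxnb2 stood apart, and neighbours among the other 4 were closer than the sum of their SDs. Within every day 0 library, however, Plxnd1 lay above Sema5a and Sema5a above Nrp1, while the order of Nrp1 and Sema3c varied. At day 8 Plxnb2 had 128 ± 12.7 TPM and Sema5a 121 ± 13.1, within 1 SD of each other, followed by Plxnd1 at 79.0 ± 7.98 and Nrp1 at 66.1 ± 4.56 TPM (SD, n = 5). Plxnb2 lay above Sema5a in every day 8 library. The summed TPM of all ligands was 648 to 794 at day 0 and 692 to 885 at day 8, and that of all receptors 578 to 708 and 578 to 722. Neither sum separated the ages. In the deposited TPM, the class 4 and class 5 to 7 semaphorins and the netrins lay higher, and the netrin receptors and ephrin-B ligands lower, with no overlap of family sums between the ages. After TMM scaling of TPM, a choice added after seeing the data, these 5 families were apart in the same directions. The Robo, class 3 semaphorin, Epha and ephrin-A sums then also lay lower and the neuropilin sum higher without overlap. The class 3 semaphorin ranges nearly touched, at 188.5 to 198.7 TPM at day 0 and 158.8 to 188.3 TPM at day 8. The sum of all receptors went from 654 to 688 at day 0 to 616 to 633 at day 8.

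**Figure D5:**
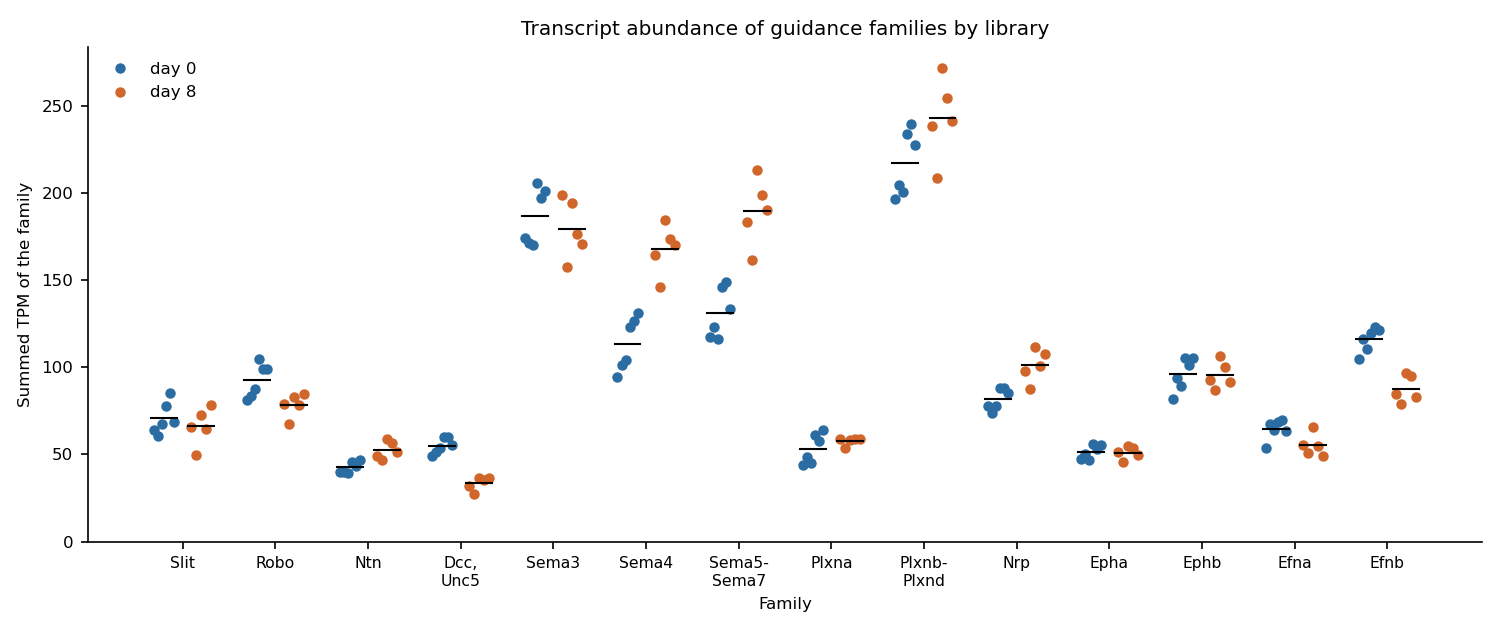
Summed TPM of each guidance family in each day 0 (n = 6) and day 8 (n = 5) library. Points are libraries and black lines are means. The netrin receptors go from 49.1 to 59.96 TPM at day 0 to 27.1 to 36.6 TPM at day 8, and class 4 semaphorins from 94.7 to 131 TPM to 146 to 185 TPM.

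A wider list of 53 genes that act with these cues or inside the cell behind them was measured as well. Of 52 tested, 16 rose, 29 fell and 7 were not called, with a median log2 fold change of -0.19. That is 30.8% higher and 55.8% lower, against 27.5% and 30.1% of all 18763 tested genes, whose median was -0.01. Dscam, a netrin receptor of neurons, went from 2.78 ± 0.707 CPM to 0.134 ± 0.0824 CPM (SD, n = 6 and 5, log2 -4.32, edgeR adjusted p = 1.62e-08). Draxin, a secreted netrin antagonist, and Dpysl5, a collapsin response mediator, fell by 1.92 and 1.74 on the log2 scale. Neuron markers fell over the same interval, as given with Slit1, and their part was not tested. Among partners of Slit and Robo, Gpc1, a glypican that binds Slit, fell by 0.96 and Srgap1, which acts below Robo, by 0.75. Neo1, a receptor of netrins and repulsive guidance molecules, fell by 0.33. Those that rose included Ngef, an exchange factor below EphA receptors, from 6.37 ± 0.659 to 22.0 ± 3.58 CPM (log2 1.78, edgeR adjusted p = 1.18e-09), and Flrt1, of a family of membrane proteins that bind Unc5 receptors, from 44.4 ± 2.06 to 93.6 ± 11.8 CPM (log2 1.08, edgeR adjusted p = 4.28e-09). Its relatives Flrt2 and Flrt3 fell by 0.97 and 0.32 on the log2 scale.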

How the data were processed

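RNA from mouse kidney was sequenced after ribosomal depletion with a stranded total RNA kit, per the labels' protocols. The authors deposited estimated counts and TPM per gene, with TPM scaled for length and library total. Per the submitters' processing notes, FastQC, fastp, DRAGEN, Picard and the build mm10 were used, while the counting settings, strand use and annotation are not given in the sources used here.

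Estimated counts, of which 12.1% to 13.1% per library were not whole, were rounded and tested with edgeR 4.0.16 in R 4.3.3 (TMM, filterByExpr, robust quasi-likelihood, age as the only term) over 18763 genes, with Benjamini-Hochberg adjustment and a threshold of 0.05. The design planned 6 against 6 libraries and was run on 6 against 5. CPM are TMM-scaled. On simulated counts for day 8 against day 0, 18550 genes were tested. The test recovered 62% of 50 genes changed 1.5-fold and 88% of 50 changed 2-fold, and 12 of 185 calls were false. Few genes were changed in the simulation, against 57.6% called in the data, so these rates need not hold for the data.

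Members and gene lists were chosen with earlier results of these data known. Given with values by library are the member of each family with the highest TPM and its called members of extreme fold change, up and down, where mean CPM reached 1, and others where a result turned on them after values were seen. Coordinates come from GENCODE vM21 on GRCm38. Alternatives were RLE normalisation, no TMM, other low-count filters, DESeq2 1.42.0, limma-voom (limma 3.58.1), limma on log2(TPM + 1) and log2(TPM + 0.1), the level of Xist as a covariate, a threshold of 0.01 and leaving out libraries. Figures used Python 3.11.15 with matplotlib 3.10.9.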

Additional observations from a re-analysis of the deposited data

Results flagged for a closer look

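In 72 groups of libraries (one guidance gene given by library at one age each), a single library lay far from the others 5 times, by the gap to its nearest neighbour relative to the whole range. Chance gives about 1 in 20 groups. Robo3 was highest in day 0 library 3, at 1.89 CPM against 1.33 to 1.53 CPM in the other day 0 libraries. The same library was lowest for Plxna2, at 64.2 CPM against 73.4 to 79.0 CPM, and for Plxna3, at 22.8 CPM against 26.6 to 28.8 CPM. Plxna3 was highest in day 8 library 5, at 19.3 CPM against 16.7 to 17.3 CPM. Ephb4 was highest in day 0 library 2, at 221 CPM against 193 to 197 CPM.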

How the results depend on the processing

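Across the alternatives, 15 to 22 guidance genes were called higher and 19 to 35 lower. Of 51 called genes, 34 kept call and direction under every alternative that gave a value, 14 higher and 20 lower. Unc5a, Epha8 and Sema4f are among the 34 but were too low for the alternatives that used TPM. The number called lower was 19 with log2(TPM + 1) and with log2(TPM + 0.1), and 20 with log2(TPM + 1) without day 0 libraries 1 to 3, an alternative added after seeing the data. The added alternative with TMM scaling of TPM gave 18 higher and 24 lower. Leaving out each library gave 18 to 20 higher and 31 to 33 lower. Signs turned for 12 genes. With log2(TPM + 1) and log2(TPM + 0.1) in turn, the log2 fold change was 0.11 and 0.12 for Slit3, 0.0906 and 0.0937 for Ntn1, 0.0091 and 0.0094 for Sema4c, 0.21 and 0.23 for Sema6c, 0.0337 and 0.0351 for Plxna1, 0.11 and 0.12 for Plxnb1, 0.0730 and 0.0738 for Plxnd1, 0.0665 and 0.0674 for Nrp1, 0.0991 and 0.1077 for Epha2, and 0.0960 and 0.1155 for Ephb1. Sema6c was also 0.16 with TPM without day 0 libraries 1 to 3 and 0.0815 with TMM-scaled TPM. Epha2, at -0.0007, was 0.0109 with RLE, 0.0055 with no filter, 0.0064 with the CPM filter, 0.0102 with DESeq2, 0.0487 without day 8 libraries 3 to 5 and 0.0160 with Xist as a covariate. With library size alone, Ephb4 was -0.0321 and Efna1 -0.0453. Leaving out single libraries gave -0.0286 to 0.0372 for Epha2, -0.0970 to 0.0059 for Ephb1 and -0.0187 to 0.0761 for Efna1. The cause of these changes was not tested. No paired analysis was possible because the labels give no replicate numbers shared between the ages. Genes with few counts, such as Dcc, Unc5a and Sema4f, are measured least precisely.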
